A study of Danio rerio with 31 samples.

Results

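The daily contrast described here sets midday against late night in whole zebrafish larvae. Midday was the sample at hour 8 of each day, 8 h after lights-on, and late night the sample at hour 20, 6 h after lights-off. Of the 31 arrays of the series, the 8 at hours 8, 20, 32 and 44 were used, 4 at midday and 4 late at night. All came from wild-type AB larvae that were raised at 28 °C under 14 h of light and 10 h of dark (LD) from birth. From 5 days post-fertilization (dpf) onwards, the larvae were followed either in the same LD cycle or in constant dark (DD), which began ahead of that day's light phase, and 1 dish per condition was collected every 4 h. Each array holds the RNA of 1 dish of 40 whole larvae, so there was 1 array per condition and hour. The 2 arrays of a time of day within a condition are successive days of the same experiment, and larvae at hour 32 were 24 h older than those at hour 8. Under DD, midday and late night are subjective times, and no light distinguishes them.

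The vertebrate clock is a feedback loop in which Bmal and Clock proteins activate genes through E-box elements and the Period and Cryptochrome proteins repress them. Further loops run through the Rev-erb and Ror nuclear receptors and through D-box factors such as Tef and Nfil3. In zebrafish the clocks of most tissues respond directly to light, and per2 is the best-known gene that light switches on. A difference between midday and late night under LD can therefore come with the light or with the clock, whereas under DD the light is absent.

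On the 8 arrays, between 81.9% and 88.9% of spots lay well above background and no spot was saturated. The LD arrays and the DD arrays were on different slides, so the level of a gene in LD and in DD cannot be told apart from a slide difference. Hours 8 and 20 lay on different slides too, whereas hours 32 and 44 of a condition shared 1 slide. Markers of 12 tissues, from muscle, neurons and lens to pancreas and intestine, were among the detected genes of these whole larvae. In whole larvae, fewer cells of a type and less RNA per cell cannot be told apart.

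Of 29531 detected genes, 599 were higher at midday and 367 were higher late at night at an adjusted p below 5% when LD and DD were fitted together. These 966 genes were 3.27% of those tested, 2.03% for midday and 1.24% for late night. The same test called 5.07% of the genes between lights-on (hours 0 and 24) and evening (hours 12 and 36), and 8.93% between morning (hours 4 and 28) and early night (hours 16 and 40). Midday against late night was thus the axis with the fewest calls of these 3. The median absolute difference over all genes was 0.16 on the log2 scale, against 0.24 and 0.22 on the other 2 axes. The 3 axes were not all alike in slides. Within a condition, hours 4 and 16 lay on different slides, as did hours 28 and 40. On each of the other axes 1 day lay within a slide and 1 across slides. Hours 0 and 12 shared a slide, but hours 24 and 36 did not. Hours 32 and 44 shared a slide, but hours 8 and 20 did not. The part of slides in these counts and medians was not tested. The 4 midday arrays and the 4 late night arrays did not overlap for 601 of the 966 genes, and for 6.68% of all detected genes, 2.87% with midday above and 3.81% with late night above. Among genes with an NCBI gene record, 333 of 11039 were higher at midday (3.02%) and 182 late at night (1.65%), 4.67% in all.

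More of the midday genes had large differences. Of the 599 midday genes, 236 differed at least 2-fold and 34 at least 4-fold, whereas of the 367 night genes 56 differed at least 2-fold and 11 at least 4-fold. Leaving out any 1 of the 8 arrays lowered the counts to between 142 and 285 genes higher at midday and between 31 and 104 higher late at night. The smallest counts were those without the LD array of hour 8. Larvae also aged 12 h from each midday array to the late night array of its day. Hour 32 differed from the night before, hour 20, in the called direction in both LD and DD for 423 of the 599 midday genes. It did so for 308 of the 367 night genes. Of all 29531 genes, 15440 had hour 32 above hour 20 in LD and 14635 in DD, each condition taken apart. The number of all genes with 1 direction in both conditions at once was not counted. Both hours were among the arrays that made the calls, so the 423 and 308 are partly built in. With a straight line over the hours in place of the day, 500 of the 966 still passed. The part of age in these calls was not tested.

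The clock repressors cry1b, bhlhe40 and per3 were higher at midday in LD and in DD, and bmal2 was the only activator of the core loop that passed. Of 8 detected genes of the negative limb, 2 were higher at midday and 0 late at night, beside 3.27% called over all genes, and their median difference was 1.47 on the log2 scale against -0.01 over all genes. In the LD contrast alone 5 of the 8 passed and in the DD contrast alone 3, all higher at midday. Over all genes 1.05% passed in LD and 0.247% in DD. The period gene per3 had LD signals of 8.06 and 8.43 at midday and 5.54 and 6.02 late at night, and DD signals of 7.92 and 8.13 at midday and 5.29 and 5.88 late at night. The 2 sets of arrays lay far apart in both conditions, and per3 was 5.48-fold higher at midday (2.45 ± 0.09 SE on the log2 scale, adjusted p = 0.000968). In LD alone its difference was 2.46 and in DD alone 2.45. The cryptochrome gene cry1b read 10.5 and 11.08 at midday against 6.87 and 7.63 late at night in LD. In DD it read 10.85 and 11.41 against 7.95 and 9.01. The difference of cry1b was 8.56-fold (3.1 ± 0.20, adjusted p = 0.00192).

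Another repressor, bhlhe40 (Dec1), acts on E-box elements. Its signal was 15.95 and 16.20 at midday against 12.56 and 13.55 late at night in LD, and 15.45 and 15.47 against 12.02 and 12.93 in DD. That was an 8.02-fold difference (adjusted p = 0.00173), with 3.02 in LD and 2.99 in DD on the log2 scale. The differences of per3, cry1b and bhlhe40 passed under each of the 15 alternatives run for single genes. The remaining detected repressors did not pass in the fit of both conditions. The light-responsive per2 differed by 2.63 (adjusted p = 0.109) and per1b by 2.23 (adjusted p = 0.0555). The values for per1a, cry2, cry3a and cry3b were -0.18, 0.41, 0.71 and 0.46.

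Among the 6 genes of the positive limb only bmal2 passed, and it was higher late at night by 0.94 on the log2 scale (1.92-fold, adjusted p = 0.0219). It did not pass in a fit over all 24 arrays, nor when any of 6 single arrays was left out. The others, bmal1a, bmal1b, clocka, clockb and npas2, lay between -0.54 and 0.50. These values pool the 2 conditions, and only 2 of the 6 genes had the same direction in LD and DD. Their median was 0.44 in LD and -0.34 in DD, and 0 of the 6 passed in LD or in DD alone. Of the 6 detected nuclear receptor genes, rorab, an activator at Rev-erb/Ror elements, was 2.91-fold higher at midday (adjusted p = 0.00524). Its signals were 13.01 and 13.36 against 11.47 and 11.38 in LD and 13.07 and 13.24 against 11.61 and 12.07 in DD. The receptor genes rorca (2.15, adjusted p = 0.0689) and nr1d1 (-2.75, adjusted p = 0.0884) had large differences that did not pass, and both were larger in LD than in DD. Of the 5 detected D-box genes the repressor nfil3-6 was 5.72-fold higher at midday (2.52 ± 0.34, adjusted p = 0.0183). It lost the call when any of 5 single arrays was left out. The D-box activator tefa differed by 0.55 (adjusted p = 0.0788). Apart from bhlhe40, none of the 9 detected clock modifiers passed in this fit, and casein kinase gene csnk1da had the next largest positive value at 0.59. The related repressor gene bhlhe41 (Dec2) went the other way, at -0.79 (adjusted p = 0.332). Its difference was -1.81 in LD (adjusted p = 0.0186) and 0.22 in DD (adjusted p = 0.597).

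**Figure D1:**
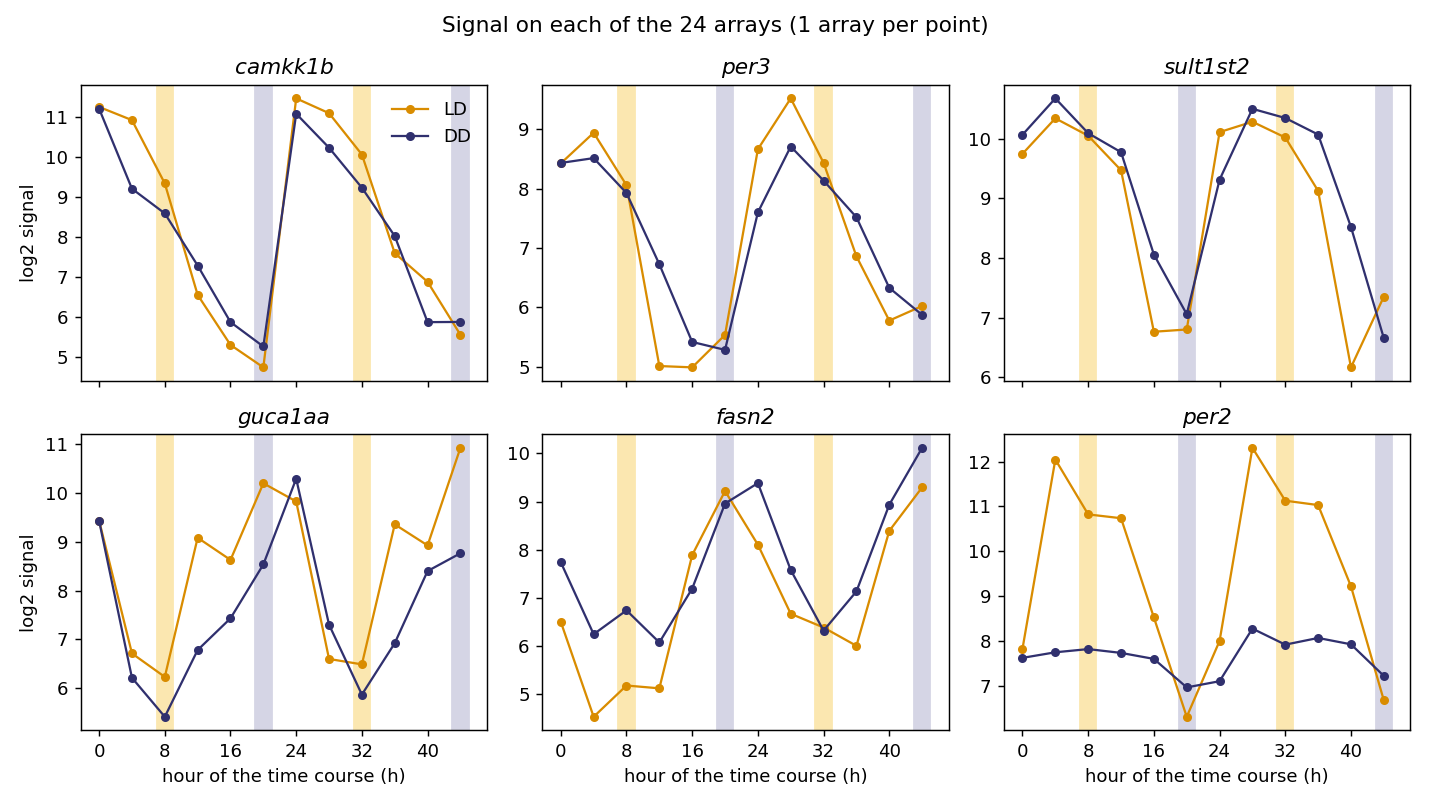
Log2 signal (vertical axis) of 6 genes on each array from hour 0 to hour 44 (horizontal axis, hours), with LD in orange and DD in dark blue. Yellow bands mark the midday arrays and pale blue-grey bands the late night arrays. per3, camkk1b and sult1st2 stood high at midday and low late at night in both conditions, guca1aa and fasn2 did the reverse, and per2 kept a large difference only in LD.

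The 15 genes with the largest difference at midday, taken among genes with a current NCBI symbol whose arrays did not overlap, were between 4.53-fold and 15.4-fold higher than late at night, with adjusted p between 0.000968 and 0.0192. All 15 passed in the LD contrast and 10 in the DD contrast, beside 1.05% and 0.247% of all genes. The same arrays chose these genes, so both counts are largely built in. The largest was camkk1b, a kinase that activates calmodulin-dependent kinases. Its LD signal was 9.34 and 10.06 at midday and 4.74 and 5.55 late at night, and its DD signal was 8.59 and 9.23 against 5.26 and 5.87. The difference was 15.4-fold (3.95 ± 0.25, adjusted p = 0.00183), with 4.55 in LD and 3.34 in DD. camk1ga and camk1gb, which encode calmodulin-dependent kinases, were higher at midday by 2.15 and 2.00. In the other direction, camk2n2, an inhibitor of calmodulin-dependent kinase II, was higher late at night by 1.41 (adjusted p = 0.00765). The camk family was chosen after its values were seen. Of its 12 detected members, 5 were higher at midday and 1 late at night. The shares over all genes with an NCBI record were 3.02% and 1.65%.

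Enzymes of xenobiotic, steroid and retinoid metabolism were among the others. dhrs13l1, named as a dehydrogenase/reductase, read 14.94 and 14.27 against 11.37 and 10.80 in LD and 14.45 and 14.09 against 11.65 and 10.66 in DD, a 9.96-fold difference (adjusted p = 0.000968). The sulfotransferase gene sult1st2 read 10.05 and 10.02 against 6.80 and 7.35 in LD and 10.10 and 10.35 against 7.06 and 6.66 in DD. Its difference was 8.96-fold (adjusted p = 0.00142), and the DD difference of 3.37 was above the LD difference of 2.96. The cytochrome P450 genes cyp2ad6, cyp2k19 and cyp2n13 were higher at midday by 2.88, 2.67 and 2.44 on the log2 scale. Their DD differences were 2.90, 2.54 and 2.39, close to their LD differences of 2.86, 2.80 and 2.50. bco1l, of the carotenoid oxygenase family, was 6.17-fold higher (adjusted p = 0.0139), by 3.35 in LD and 1.90 in DD.

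Families of conjugating and oxidizing enzymes were then counted as a whole, families that were likewise chosen after their values were seen. For comparison, 3.02% of all genes with an NCBI record were higher at midday and 1.65% late at night, and 0.247% of all genes passed in DD. Of 22 detected CYP2 genes, 9 were higher at midday and 0 late at night, and 5 passed in the DD contrast. Besides those named above they were cyp2ad2, cyp2p6, cyp2aa12, cyp2x9, cyp2ad3 and cyp2p9, which differed by 0.93 to 2.15. The median over the 22 was 0.62. Of 12 sulfotransferase genes, 4 were higher at midday, sult1st2, sult1st3 (2.02), sult1st6 (1.56) and sult3st2 (1.01), with 0 late at night. Of 17 glutathione transferase genes, 5 were higher at midday and 0 late at night. The largest of them were gsto1 (1.79, adjusted p = 0.00554), gstp1.1 (1.59) and gsto2 (1.54).

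Other enzymes and regulators among the 15 were prss60.1, ppm1na, pdk2b and zgc:92161. prss60.1, a serine protease gene, read 9.89-fold higher at midday, but only 2 of its 4 late night arrays were well above background. The protein phosphatase gene ppm1na was 9.40-fold higher (adjusted p = 0.000968). pdk2b encodes a pyruvate dehydrogenase kinase, which holds back the oxidation of glucose, and was 4.64-fold higher (adjusted p = 0.0192). Its signal also rose from the first day to the second, from 14.62 to 16.33 at midday in LD and from 14.25 to 15.30 in DD.

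Genes without an NCBI record reached a difference of 5.38 on the log2 scale toward late night and are not named here. The 15 genes with the largest difference late at night among those with a current NCBI symbol and no overlap between arrays were between 2.37-fold and 12.2-fold higher than at midday, with adjusted p between 0.00173 and 0.0350. Of these, 8 passed in the LD contrast and 5 in the DD contrast, beside 1.05% and 0.247% of all genes. These counts too are largely built in, since the same arrays chose the genes. The largest of them was guca1aa, a calcium sensor that activates guanylate cyclase in photoreceptors. It read 6.23 and 6.48 at midday against 10.20 and 10.93 late at night in LD, and 5.41 and 5.86 against 8.54 and 8.76 in DD, a 12.2-fold difference (-3.61 ± 0.26, adjusted p = 0.00240). Every night array lay above every midday array. fasn2, a gene named as a fatty acid synthase, read 5.18 and 6.39 at midday against 9.22 and 9.29 late at night in LD, and 6.74 and 6.32 against 8.96 and 10.11 in DD. It was 9.44-fold higher late at night (adjusted p = 0.00543).

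The next was alpi.2, an intestinal alkaline phosphatase gene, which read 10.54 and 10.84 at midday against 14.16 and 14.20 late at night in LD, and 11.15 and 11.02 against 13.27 and 13.17 in DD. It was 7.03-fold higher late at night (adjusted p = 0.00726), by 3.50 in LD and 2.13 in DD. gyg2, a glycogenin gene whose product primes glycogen synthesis, was 4.26-fold higher late at night (adjusted p = 0.00846), with -1.72 in LD and -2.46 in DD. The carbonic anhydrase gene ca4b was 4.09-fold higher late at night (adjusted p = 0.00183), and the connexin gene gja10a 3.61-fold (adjusted p = 0.0258). The other members were lgals3bp.2, zgc:123297, tmsb5, zgc:103625, zgc:174917, camk2n2, irg1l, dhrs4 and ctss2.1, with values from -1.78 to -1.25.

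Genes of phototransduction and the visual cycle were split between the 2 times. Of 38 detected, 7 were higher at midday and 2 late at night, beside 3.02% and 1.65% of all genes with an NCBI record, and the median was 0.12. Those higher at midday included the cone arrestin gene arr3a, the rod arrestin gene sagb, the recoverin gene rcvrn3 and the retinal G protein receptor gene rgra. rcvrn3 read 16.69 and 16.32 against 14.45 and 14.40 in LD and 14.99 and 14.88 against 13.92 and 13.72 in DD, a 3.03-fold difference (adjusted p = 0.0157). arr3a was 2.79-fold higher (adjusted p = 0.0307), by 2.05 in LD and 0.91 in DD. The retinoid genes rdh5 and rlbp1b and the guanylate cyclase gene gucy2f also passed, at 0.78, 0.57 and 0.61, although only 2 of the 4 late night arrays of gucy2f were well above background. The calcium sensors guca1aa and guca1g (-0.83) were the members higher late at night. From hour 8 to hour 32 the median change over the 38 genes was -0.34 in LD and -0.38 in DD. Hour 32 lay above hour 20 for 15 of the 38 in LD and 17 in DD. Markers of lens, which lies in the same organ, had values of 0.78 to 1.03 for the 4 detected, and 0 of 4 passed. Their median within-day difference in LD was 1.60 on the first day and -0.06 on the second. Their part in the result was not tested.

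Of the lists examined, DNA replication gave the most genes higher at midday, a direction in which 3.02% of all genes with an NCBI record passed. All 43 detected members had a positive difference, 28 passed and 0 were higher late at night, with a median of 0.75 on the log2 scale against -0.01 over all genes. They spanned origin licensing (cdc6, orc1, orc4, orc6, mcm3, mcm4, mcm5), the GINS complex (gins2, gins3, gins4), polymerases and primases (pole, pold1, prim1, prim2) and nucleotide supply (tyms, dhfr, rrm1). The thymidylate synthase gene tyms read 12.99 and 11.37 at midday against 11.85 and 9.92 late at night in LD, and 12.91 and 11.30 against 11.53 and 9.69 in DD. Each midday array lay above the late night array of its own day, but the midday array of the second day lay below the late night array of the first. tyms was 2.63-fold higher at midday (1.40 ± 0.10, adjusted p = 0.00244) when the days were separated. The licensing factor cdc6 had the same course and was 2.37-fold higher (adjusted p = 0.00214). Of 37 mitosis genes, 9 passed, all higher at midday, among them the condensin gene smc2 (0.81, adjusted p = 0.00669), with a median of 0.37. The proliferation marker pcna differed by 0.47 (adjusted p = 0.0757) and the cyclin gene ccnb1 by 0.11.

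These 2 groups also fell from day to day, and this touches their count. The median of the DNA replication genes fell by 1.06 on the log2 scale from hour 8 to hour 32 in LD and by 1.03 in DD. Since each late night array was taken 12 h after the midday array of its day, a steady fall with age gives a positive difference within a day. Hour 32 lay above hour 20 for 8 of the 43 genes in LD and 19 in DD, and for 15440 and 14635 of all 29531 genes. For mitosis it did so for 2 of the 37 genes in LD and 0 in DD. With a straight line over the hours in place of the day, 4 of the 43 passed and the median was 0.28. With the slide as a fixed block over all 24 arrays 9 passed, with a median of 0.50. For mitosis genes the straight line left 0 of 37, with a median of -0.22. Leaving out any 1 array left between 10 and 20 of the 43 replication genes, the fewest without the LD array of hour 8. In the CYP2 genes the fall was small, with a median change of -0.13 from hour 8 to hour 32 in LD and 0.04 in DD, and hour 32 lay above hour 20 for 17 of 22 genes in each condition. The straight line takes any fall with age to be steady over the 2 days, which was not tested. Beyond that line, a daily difference and a fall with age were not separated for the replication and mitosis genes.

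**Figure D2:**
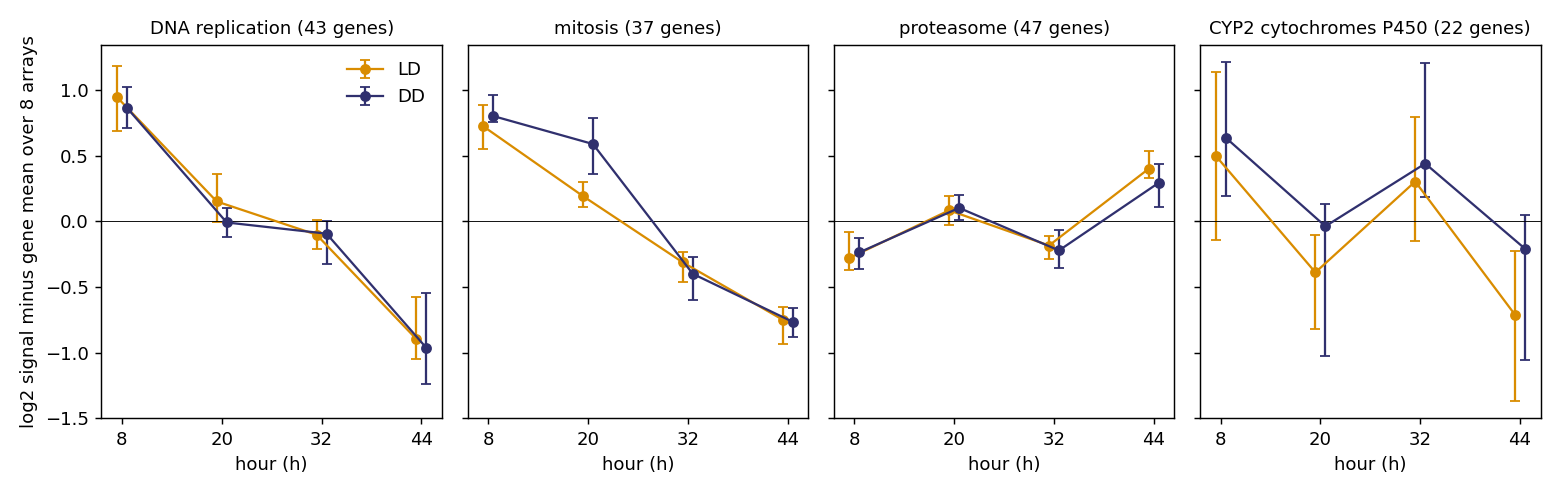
Median over the genes of 4 groups of the log2 signal at hours 8, 20, 32 and 44 (horizontal axis, hours), after subtraction of each gene's mean over the 8 arrays, with LD in orange and DD in dark blue. Bars span the quartiles over genes. DNA replication and mitosis genes fell from hour to hour, whereas proteasome genes were higher and CYP2 genes lower late at night on both days.

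Proteasome genes were higher late at night, a direction in which 1.65% of all genes with an NCBI record passed. Of 47 detected subunit genes, 44 had a negative difference, 9 passed and 0 were higher at midday, with a median of -0.47. Those that passed were the core subunits psma8, psma6l, psmb4, psmb6 and psmb12, the base and lid subunits psmc1b, psmd1 and psmd13 and the activator gene psme1. psmd1 read 15.41 and 15.39 at midday against 15.98 and 16.29 late at night in LD, and 15.37 and 15.44 against 15.93 and 16.15 in DD. The difference was small, 1.61-fold, but the arrays did not overlap (adjusted p = 0.0189). psmb6 was 1.71-fold higher late at night (adjusted p = 0.0249). The number that passed moved with the setting, for reasons that were not tested. It was 29 when all 24 arrays were fitted, and 0 or 1 when any single array was left out. The median stayed between -0.56 and -0.36 under every alternative. Of 49 ribosome biogenesis genes, 44 were negative with a median of -0.24, but only utp4 and rrp12 passed, beside the same 1.65%. Their median change from hour 8 to hour 32 was 0.38 in LD and 0.51 in DD. Hour 32 lay above hour 20 for 30 of the 49 in LD and 37 in DD, against 10 and 9 of the 47 proteasome genes. On the second DD day their median difference was 0.01. A nightly rise and a rise with age were not separated for them.

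Late at night 1.65% of all genes with an NCBI record were higher, and at midday 3.02%. Pancreatic digestive enzymes had 4 of 17 detected genes higher late at night and 0 at midday, with a median of -0.29. These were the lipase gene cel.1, the carboxypeptidase genes cpb1 and cpa5 and the amylase gene amy2al2. cel.1 read 12.94 and 14.13 at midday against 13.69 and 14.92 late at night in LD, and 12.80 and 14.12 against 14.02 and 15.03 in DD, a 1.89-fold difference (adjusted p = 0.0106). Its signal rose between the days by more than it differed within them, and with the straight line over the hours 0 of the 17 passed. Of the 4 markers of exocrine pancreas, cel.1 and cpa5 passed and the others were also negative. The intestinal markers vil1 and apoa4b.1 passed in the other direction, at 0.71 and 0.74. The part of these tissues in the other results was not tested.

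Smaller changes were spread over the remaining lists. Of 41 chaperone genes, 5 were higher at midday and 1 late at night, beside 3.02% and 1.65% of all genes with an NCBI record. The collagen chaperone gene serpinh1b was 3.26-fold higher at midday (adjusted p = 0.00771) and the heat shock factor gene hsf2 2.48-fold (adjusted p = 0.00554), followed by hsp90aa1.2 (1.07), dnaja1 (0.61) and dnajb1b (0.58). The cold-inducible RNA-binding protein gene cirbpb was 1.93-fold higher late at night (adjusted p = 0.0218), and hsp70l was at 0.73 without passing. From hour 8 to hour 32 the median change over the 41 chaperone genes was -0.32 in LD and -0.17 in DD. Hour 32 lay above hour 20 for 13 of the 41 in LD and 12 in DD. Of 29 genes of sterol and fatty acid synthesis, the sterol enzymes dhcr7 (1.17), cyp51 (1.12), nsdhl (0.52) and sc5d (0.46) were higher at midday. This list also fell with the days, with a median change of -0.61 in LD and -0.57 in DD from hour 8 to hour 32. Hour 32 lay above hour 20 for only 4 of the 29 in LD and 6 in DD. The low-density lipoprotein receptor gene ldlra was higher late at night by 1.17 (adjusted p = 0.0195). Of 35 genes of fasting and glucose metabolism, pdk2b was higher at midday, and the hexokinase gene hk2 (-0.99) and hnf4a (-0.66) late at night. Of 21 purine genes 1 passed, a share close to the 4.67% of all genes with an NCBI record. It was pnp4b, a purine nucleoside phosphorylase gene, which was 2.74-fold higher at midday (adjusted p = 0.00482), with 1.72 in LD and 1.19 in DD.

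Of 24 genes of DNA repair, the damage sensor ddb2 was higher at midday by 1.13 (adjusted p = 0.0451), and ercc2 (-0.60) and gadd45bb (-0.87) late at night. Of 10 genes of melatonin and the pineal organ, the pineal opsin gene exorh was 1.95-fold higher late at night (adjusted p = 0.0373). The melatonin synthesis gene aanat1 differed by -1.02 without passing (adjusted p = 0.0772). Its difference was -1.57 in LD (adjusted p = 0.0290) and -0.47 in DD (adjusted p = 0.345). Of 13 pigment genes, pmelb, a melanosome matrix gene, was 1.90-fold higher late at night (adjusted p = 0.0246). None of the detected genes of the lysosome (33), autophagy (18), glucocorticoid signalling (10), hypothalamic and pituitary hormones (21) or immediate early factors (20) passed. Among all genes with an NCBI record, 3.02% were higher at midday and 1.65% late at night. The counts of these small lists were not tested against those shares.

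**Figure D3:**
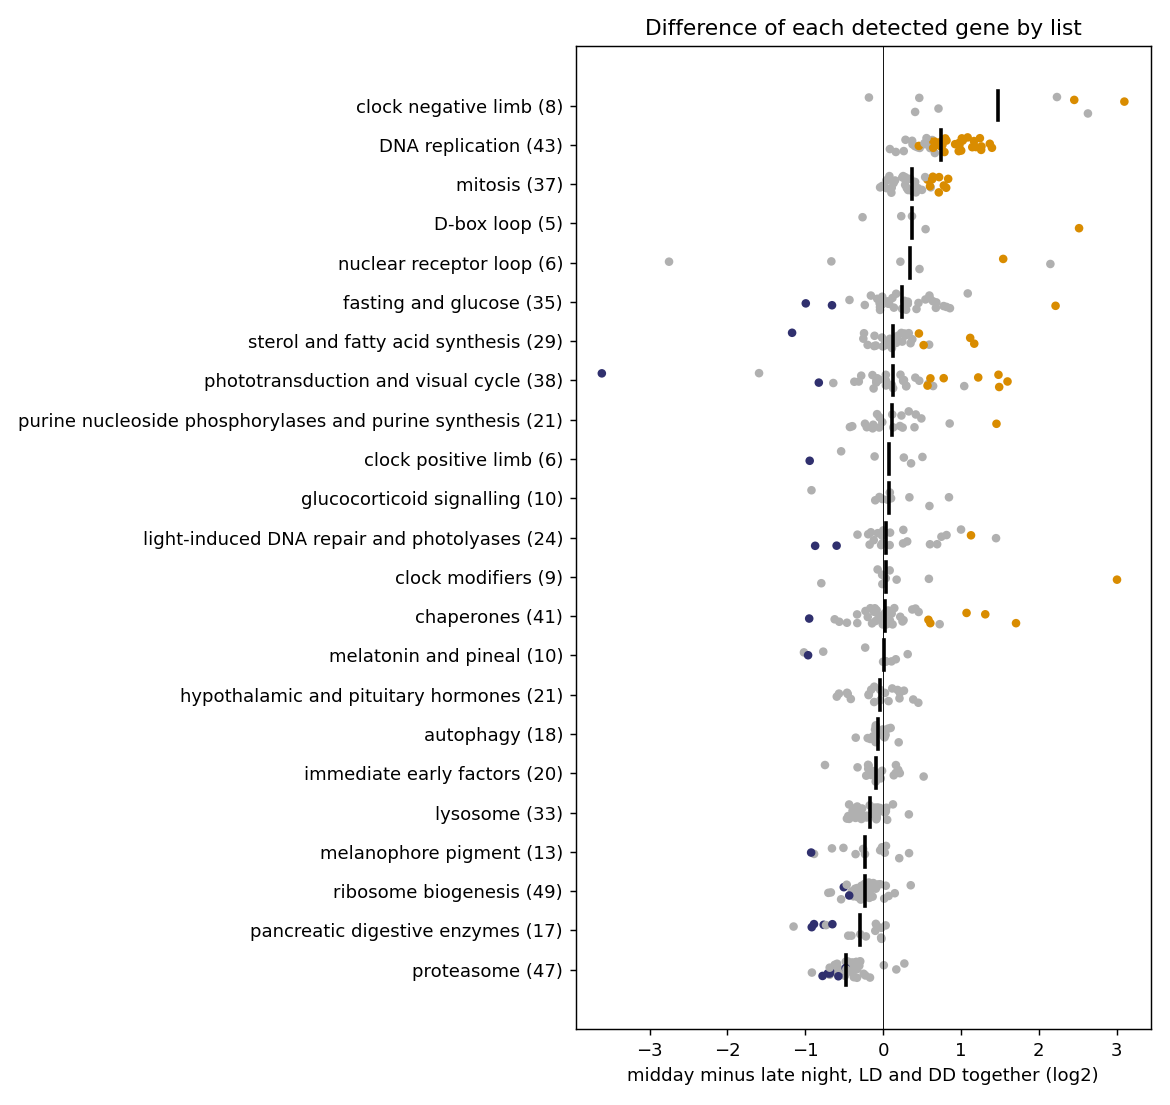
Midday minus late night difference on the log2 scale (horizontal axis) of every detected gene of 23 lists, with the number of detected genes in brackets. Points in orange passed as higher at midday, points in dark blue as higher late at night and grey points did not pass, and black bars are medians, from 1.47 for the clock's negative limb to -0.47 for the proteasome.

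Whether the difference holds in DD was first read from the genes that passed in the LD contrast. The LD and DD contrasts came from 1 fit with a shared estimate of spread, so the selection used the spread of the DD arrays but not their midday to late night difference. Of 29531 genes, 311 passed in LD (1.05%), 242 higher at midday (0.819%) and 69 late at night (0.234%). In DD 73 passed (0.247%), 60 higher at midday (0.203%) and 13 late at night (0.044%). Of the 311 LD genes, 296 (95.2%) had the same direction in DD, and 287 (92.3%) had it on both DD days. Over all genes, 61.9% had the same direction in LD and DD, and 39.2% had the LD direction on both DD days. The shared spread favours genes whose DD days agree, so the count on both days is partly built in. Larvae aged alike in LD and DD, and the part of age in the shared direction was not tested. After adjustment 59 of the 311 passed in DD too, and in the fit over all 24 arrays, which called 3.01% of all genes in LD and 1.22% in DD, 131 did, and since both contrasts share the spread, these counts are not independent of the selection. Conversely, of the 73 genes that passed in DD, 70 (95.9%) had the same direction in LD.

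The size of the difference in DD relative to LD depended on how the genes were selected. The DD difference was a median of 0.60 of the LD difference over the 311 genes selected in LD, with quartiles of 0.34 and 0.86. It was at least 50% of the LD difference for 191 of them and at least as large for 29. Selection in LD favours a high LD value. For the 73 genes selected in DD, the LD difference was a median of 1.01 of the DD difference. For the 966 genes called on both conditions together, the median ratio of DD to LD was 0.90. Of them 64.2% had the smaller difference in DD, against 50.9% of all genes. That fit counts a gap between LD and DD as spread, so genes with unequal differences passed less easily and a ratio near 1 is partly built in. None of the 966 had a DD difference under 25% of that in LD. These ratios were not tested. All 966 had the same direction in LD and DD and on each day, which the joint selection largely requires.

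**Figure D4:**
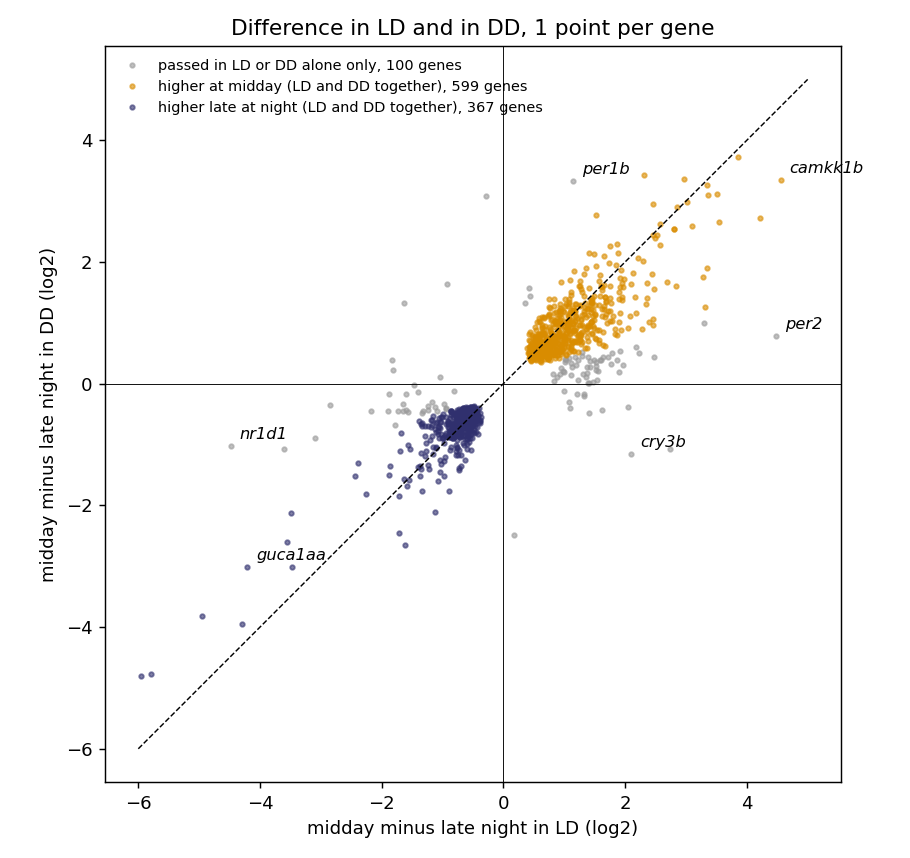
Midday minus late night difference in LD (horizontal axis) and in DD (vertical axis), both on the log2 scale, with 1 point for each gene that passed in LD and DD together (599 in orange, 367 in dark blue) or, in grey, in LD or DD alone. The dashed line marks equal differences. Most points lie in the 2 quadrants of equal direction, and per2, nr1d1 and cry3b lie far from the line.

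A minority of the LD differences were small or reversed in DD, among genes selected for a high LD value. Of the 311 genes, 57 (18.3%) had a DD difference under 25% of that in LD or of the other direction, 43 of them higher at midday and 14 late at night. The largest was per2, with LD signals of 10.82 and 11.13 at midday against 6.30 and 6.67 late at night. In DD the same gene read 7.82 and 7.91 against 6.96 and 7.22. Its difference was 22.4-fold in LD (4.48 ± 0.13, adjusted p = 0.00171) and 1.71-fold in DD (0.78 ± 0.13, adjusted p = 0.114). The DD midday arrays of per2 still lay above its DD night arrays, and below its LD midday arrays. The Rev-erb gene nr1d1, a repressor at the same elements that Ror proteins activate, read 11.05 and 11.93 at midday against 15.70 and 16.24 late at night in LD, and 12.68 and 13.83 against 14.26 and 14.29 in DD. It was 22.3-fold higher late at night in LD (adjusted p = 0.0126) and 2.03-fold in DD (adjusted p = 0.252). cry5, a photolyase gene that light induces in zebrafish cells, differed by 2.47 in LD (adjusted p = 0.0147) and 0.43 in DD. pde6ga, a phosphodiesterase subunit gene of photoreceptors, differed by -2.84 in LD and -0.34 in DD. The cryptochrome gene cry3b differed by 2.09 in LD (adjusted p = 0.0285) and by -1.16 in DD (adjusted p = 0.163).

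The test of the difference between the LD and the DD contrasts is the one that bears on such genes. In the 8 arrays 0 genes passed it by limma, with a smallest adjusted p of 0.0655 for per2, and 1782 genes (6.03%) had an unadjusted p below 0.05. In the simulation of a 4-fold change in LD alone on 200 probes, 41% of the changed probes passed this test, and of a 2-fold change 0% did. That simulation had no day or slide effects, and its rates need not hold for these arrays. The 10 smallest p-values included per2 (LD minus DD of 3.71 ± 0.18), bco2b, lratb.2, cry3b and pde6ga, the other 5 being genes without an NCBI record here. bco2b, a carotenoid oxygenase gene, read 8.49 and 8.89 at midday against 6.45 and 6.84 late at night in LD, and 6.46 and 6.50 against 6.70 and 7.04 in DD. Its LD difference was thus 2.05 and its DD difference -0.39. When the spread was taken from all 24 arrays, 21 genes (0.0711%) passed, per2 among them (adjusted p = 0.000190). per1b moved the other way without passing the test of the difference, with 1.14 in LD and 3.33 in DD (unadjusted p = 0.00166, adjusted p = 0.710). Its DD signals were 14.18 and 14.76 at midday against 10.68 and 11.61 late at night.

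Genes higher at midday were most often highest earlier in the day, and genes higher late at night were most often highest at that hour. Among the 599 genes higher at midday, the highest of the 6 daily means lay at hour 8 for 28.7% in LD and 20.2% in DD, against 11% and 12.9% of all genes. Hour 4 held the most, 236 genes in LD and 305 in DD. Among the 367 genes higher late at night, hour 20 was highest for 51.2% in LD and 61.6% in DD, against 10.2% and 16.6% of all genes. These hours were partly used in the selection and are given as a description. Of the 599 midday genes, 402 also passed between hours 4 and 16, beside 8.93% of all genes, 400 of them with hour 4 higher. Between hours 0 and 12, 74 passed, beside 5.07% of all genes, 46 with hour 0 higher and 28 with hour 12 higher. Of the 367 night genes, 148 also passed between hours 4 and 16, 145 of them with hour 16 higher. Between hours 0 and 12, 67 of them passed, 58 with hour 0 higher and 9 with hour 12 higher. The remaining 341 of the 966 genes passed on the midday to late night axis and on neither of the others, 175 higher at midday and 166 late at night.

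**Figure D5:**
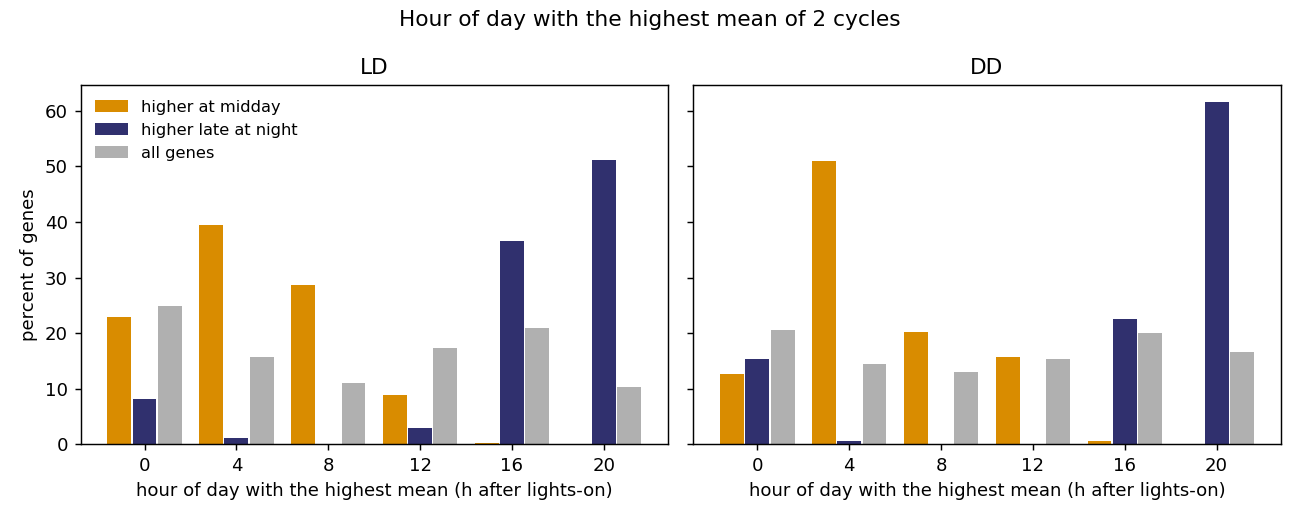
Percent of genes (vertical axis) whose highest daily mean, over the 2 days, lay at each hour after lights-on (horizontal axis), for LD on the left and DD on the right. The 599 genes higher at midday (orange) peaked most often at hour 4, the 367 higher late at night (dark blue) at hour 20, and all detected genes are in grey.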

How the data were processed

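The authors hybridized each Cy3-labelled RNA to an Agilent array and extracted spots with Feature Extraction (10.5.1 in the labels, 10.7.3.1 in the file headers). The deposited log2 values of the 24 time-course arrays were quantile normalized by the authors as 1 set with GeneSpring. These log2 values were tested. The scanner files' background-subtracted spot intensity, as the authors deposited it, gave detection and alternative scalings. The authors' build was danRer6 per the file headers, and no coordinates were used. Of 43603 probes, 16568 matched 11484 NCBI genes by accession, and the rest kept the array's name, so 1 gene can be counted under several names.

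Probes well above background on at least 18 of 24 arrays were kept (35412 probes, 29531 genes), and the brightest probe stood for a gene. limma 3.58.1 (R 4.3.3) fitted midday minus late night with condition and day as blocks, and, in a second fit with a time by condition term and 1 shared spread, LD, DD and their difference. Day pairs the arrays through the hours in the labels. p-values are two-sided with Benjamini-Hochberg adjustment over all kept probes, with a limit of 5%. A gene that passed is called higher at 1 time. With 1 dish per hour, p-values do not measure the spread between dishes. They rest on what remains after the condition and day blocks, such as unevenness of the midday to late night difference over days and conditions. The precision is limited by the number of arrays. In simulated data 51.5% of 200 probes changed 2-fold and 86% of those changed 4-fold passed in the fit of both conditions, with 4 and 7 unchanged probes called.

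The genes, gene lists and comparison were chosen with earlier results of these data known. Named were the detected clock genes, the members of other lists that passed and those that define a list. So were the 15 largest non-overlapping genes in each direction with an NCBI symbol. Also named were 10 genes with the smallest p for LD minus DD or the largest LD difference that was small or reversed in DD. Genes of this rule without an NCBI record, and the scan for promoter motifs, are not reported here. The 7 arrays at 48 and 50 h were not used. Alternatives covered blocks, slides, scaling, background, filters and leaving out each array.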

Additional observations from a re-analysis of the deposited data

Results flagged for a closer look

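In 10 genes with an NCBI record, the midday to late night difference differed between LD and DD by the test of that difference over all 24 arrays. LD and DD lay on different slides. A test of the difference over the 8 arrays passed for 0 of them. The LD minus DD differences were 3.71 for per2, 3.26 for cry3b, 2.43 for bco2b, 2.04 for lratb.2, 1.41 for cry3a, 1.38 for cpdp, 1.2 for tspo and 0.95 for bokb. They were -2.03 for bhlhe41 and -2.1 for rdh8b. A further 11 genes without a current symbol also passed. Among these are carotenoid and retinoid enzymes, since bco2b cleaves carotenoids, lratb.2 is named for retinol acyltransferase and rdh8b for retinol dehydrogenase. rdh8b read 10.70 and 10.95 at midday against 11.47 and 12.19 late at night in LD, and 12.27 and 12.42 against 10.89 and 11.59 in DD, so that the 2 conditions moved in opposite directions.

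Among the 15 largest genes in each direction, 60 sets of 4 arrays were searched for a single array far from the others, and chance marks about 1 in 20 such sets. In 2 sets 1 array stood apart. The midday arrays of zgc:123297 read 4.52 at hour 8 in LD against 5.56 to 5.69 on the other 3, a gap of 0.894 of the range. Those of irg1l read 8.94 at the same hour in LD against 9.58 to 9.67, a gap of 0.865 of the range. In both genes the low array was on the side of the difference.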

How the results depend on the processing

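The counts of genes moved with the setting, and the cause was not tested. The 966 genes kept their direction under each alternative, except 19 under the straight line over the hours and 42 that were not tested when detection on all 24 arrays was required. This was partly fixed in advance. The fits with other day blocks and over all 24 arrays give the same estimate as the main fit. In all 966 genes the within-day differences also had 1 direction. For genes higher at midday, higher late at night, passing in LD and passing in DD in turn, the counts were 599, 367, 311 and 73. They were 365, 177, 122 and 0 with a block for each condition and day, and 99, 44, 45 and 12 with no replicate block for the day. They were 1065, 932, 889 and 361 over all 24 arrays, 899, 742, 831 and 312 with normexp background correction, 954, 818, 969 and 397 with a trended robust prior, and 337, 148, 80 and 2 with no detection filter. With the slide as a fixed block over 24 arrays, 553 were higher late at night, 963 passed in LD and 195 in DD. With the slide as a random block 179 passed in LD and 26 in DD, and with detection on all 24 arrays 575 were higher late at night, 505 passed in LD and 154 in DD. The straight line left 48 in DD. With only hours 32 and 44, which share a slide, 46 and 14 passed. All 966 kept their direction there, which their within-day differences had already fixed. The difference between LD and DD passed for 21 genes over all 24 arrays, 9 with slides fixed, 6 with the trended prior, 3 with normexp, 1 with detection on all arrays and 0 otherwise with all 8 arrays.

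Leaving out 1 array gave 142 to 285 genes higher at midday, 31 to 104 late at night, 3 to 36 in LD, 0 to 17 in DD and 0 to 16 for the difference. Of 123 named differences, 118 kept their direction throughout, which was likewise partly fixed in advance. Under every alternative run for them 17 passed, among them per3, cry1b, bhlhe40, camkk1b, sult1st2, guca1aa, fasn2 and alpi.2, and per2 in LD. The straight line turned spc24 (-0.0105), ccna2 (-0.0023), fbxo5 (-0.0203), sc5d (-0.083) and utp4 (0.0028) to the other side of 0. Of the 15 largest midday and 15 largest night genes, 15 and 15 passed with the straight line, and 12 to 14 and 9 to 12 with 1 array left out. LD and DD apart within hours 32 and 44 were not run, since no residual degrees of freedom remain. Signal over background limits prss60.1 and gucy2f, dim late at night.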
